A study of Mus musculus with 6 samples.

Results

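The genes described here are 36 components of the synaptic vesicle and its release machinery, chosen by name for their known roles, with no measured value in the rule. Earlier results of these data were known when the list was chosen. Each gene was found in the deposited isoform table of 17022 gene names, and each was among the 12289 genes with a mean of at least 1 FPKM that were tested. They were measured in neurons cut by laser microdissection from dorsal root ganglia, the clusters of sensory neuron cell bodies beside the spinal cord, of male C57Bl/6 animals, given as adult and as 4 to 6 weeks of age. In the crush group (3 libraries, crush 1 to 3) the sciatic nerve had been crushed for 10 seconds 7 days before the ganglia of lumbar levels 3, 4 and 5 on the operated side were taken. In the sham group (3 libraries, sham 1 to 3) the nerve had been exposed for 10 seconds and left uncrushed. FPKM relates the sequenced fragments of a transcript to its length and to all mapped fragments, as the authors computed it, and the isoforms of a gene were summed here. The sources used here do not say how many animals a library came from, so p-values measure the spread between these libraries, which may be technical. Whether a given neuron's axon ran through the crush is likewise not given.

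Neurotransmitter is held in synaptic vesicles and released when calcium enters the nerve terminal. Synaptotagmins on the vesicle sense the calcium, and SNARE proteins of the vesicle (synaptobrevins, Vamp genes) and of the plasma membrane (syntaxin and Snap25) zip together and drive fusion. Complexins hold and trigger the SNARE complex, the ATPase Nsf takes it apart for reuse, Rab3 and the active zone scaffolds bring vesicles to the release site, and dynamin retrieves their membrane. Sensory neurons make these proteins in the cell body and send them both to central terminals in the spinal cord and to the skin and muscle, and use glutamate as their main fast transmitter.

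Of the 36 genes, 3 fell and 1 rose after crush (limma, adjusted p under 0.05 over all genes tested). The falls were the synaptobrevin Vamp1, the calcium sensor Syt2 and the vesicle glycoprotein Sv2b, and the rise was Syt4, a synaptotagmin that does not bind calcium in the usual way. Among all 12289 genes, 3.78% passed, 1.39% lower and 2.38% higher; of those averaging 10 FPKM or more, 1.88% passed lower and 2.13% higher. The upstream regions below are those of the genes that fell, shown so that their base composition and motifs can be compared; Syt4 is not shown. They are the 250 bases before RefSeq transcription starts in build GRCm38.p6, 5′ to 3′ on the gene's strand, with capitals marking the searched motifs. These were the GC box (GGGCGG), the AP-1 site (TGANTCA), the cyclic AMP response element (TGACGTCA), the TATA box (TATAAA) and 2 stretches of the RE1 element (TTCAGCACC and GGACAGC), each on both strands, so that a match on the other strand reads as the motif's reverse complement.
Vamp1, chr6:125215331-125215580, plus strand: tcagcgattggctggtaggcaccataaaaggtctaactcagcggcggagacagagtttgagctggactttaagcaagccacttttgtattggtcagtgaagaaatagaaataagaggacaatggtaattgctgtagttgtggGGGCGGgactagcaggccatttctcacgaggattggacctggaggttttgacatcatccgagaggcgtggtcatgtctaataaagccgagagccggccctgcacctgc
Syt2, the upstream start, chr1:134646362-134646611, plus strand: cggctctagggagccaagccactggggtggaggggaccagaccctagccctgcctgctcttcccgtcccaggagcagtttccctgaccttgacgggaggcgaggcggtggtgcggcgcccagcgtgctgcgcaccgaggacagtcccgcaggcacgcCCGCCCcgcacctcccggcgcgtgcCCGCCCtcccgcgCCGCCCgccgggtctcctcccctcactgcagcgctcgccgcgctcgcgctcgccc
Syt2, the downstream start, chr1:134709050-134709299, plus strand: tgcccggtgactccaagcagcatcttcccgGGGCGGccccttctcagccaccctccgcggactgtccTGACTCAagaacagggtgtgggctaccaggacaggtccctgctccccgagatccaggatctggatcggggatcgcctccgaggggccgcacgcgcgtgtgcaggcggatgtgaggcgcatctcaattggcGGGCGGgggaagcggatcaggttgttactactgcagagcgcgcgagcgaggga
Sv2b, the most upstream of 4 starts, chr7:75309263-75309512, minus strand: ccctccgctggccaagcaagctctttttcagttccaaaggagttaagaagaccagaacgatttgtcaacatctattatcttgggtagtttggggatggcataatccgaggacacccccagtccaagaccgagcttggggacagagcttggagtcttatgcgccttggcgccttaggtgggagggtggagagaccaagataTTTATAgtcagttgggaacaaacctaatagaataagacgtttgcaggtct
In these letters Vamp1 has 1 GC box, Syt2 has 3 before its upstream start and 2 before its downstream start together with 1 AP-1 match, and Sv2b has a TATA match but no GC box. The share of G and C was 50.4% for Vamp1, 76.0% and 66.4% for the 2 Syt2 starts and 48.8% for Sv2b. Sequences were matched for 29 of the 36 genes (40 starts). A GC box was found before 22 of these 40 starts, 55.0%, and before 32.7% of all 32851 starts in the table. AP-1 was found before 2 of the 40 (those of Syt2 and Rph3a, 5.00%, against 6.75% of all) and TATAAA before 3 (7.50%, against 12.4%). The cyclic AMP response element was found before 1 start, that of Syn1 (2.50%, against 1.55% of all). Of the RE1 stretches, TTCAGCACC was found before 1 start (Syn1, against 0.301% of all) and GGACAGC before 1 (Rph3a, against 5.28%). These matches are letters in a window and were not tested as sites.

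The libraries of a group were not equally alike. Across the tested genes sham 2 correlated with sham 1 and sham 3 at r = 0.978 and 0.981, and the other within-group pairs at 0.993 to 0.996. In sham 2 genes of short transcripts read higher and genes of long transcripts lower than in the other sham libraries. The median difference of log2(FPKM + 1) was 0.46 for genes under 1000 bases and -0.20 for genes of 4000 bases or more, with Spearman's rho = -0.58 across all genes between length and the difference. Crush 3 showed the same tendency against the other crush libraries (rho = -0.48, medians 0.19 and -0.07). For the 36 genes rho was -0.39 in sham 2 and -0.24 in crush 3, and of the 3 release genes under 1000 bases only Sncg read higher in sham 2. The log2 change between groups itself went with length at rho = 0.36 over the 36 genes and 0.21 over all. These are descriptions across genes, which are not independent. The member that moved most was the long Sv2c transcript, 1.66 lower in sham 2, followed by the short Sncg transcript, 0.88 higher. Results are therefore also given without sham 2, and without both sham 2 and crush 3.

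**Figure D1:**
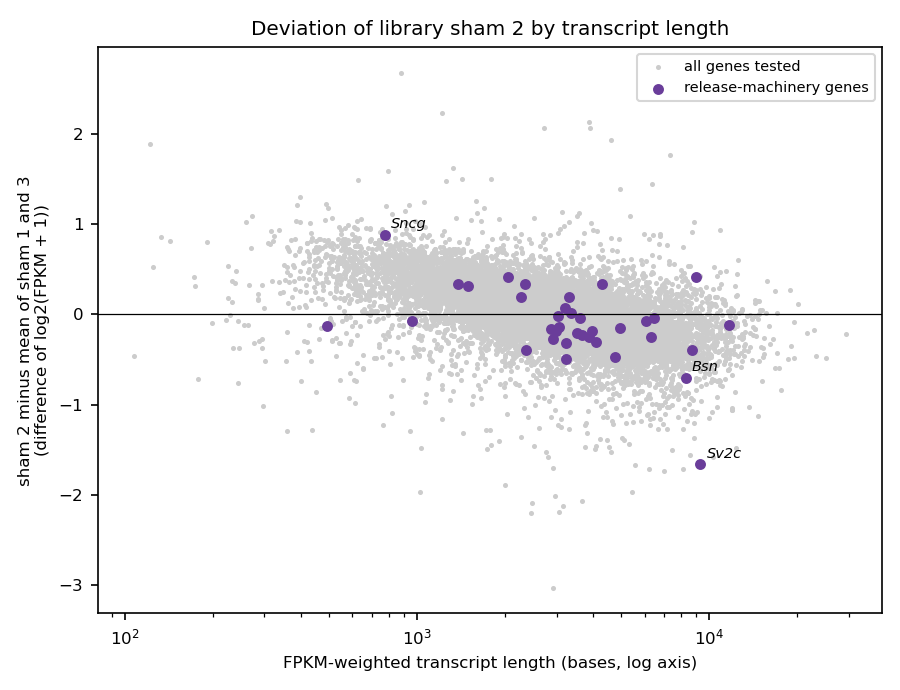
Difference between sham 2 and the mean of sham 1 and 3 in log2(FPKM + 1), on the vertical axis, against FPKM-weighted transcript length in bases on a log axis; grey points are all 12289 genes tested and purple points the 36 release genes. Sncg (777 bases) lies 0.88 above 0, and Sv2c (9325 bases) and Bsn (8309 bases) lie 1.66 and 0.70 below it; other release genes depart from the trend, such as the short Vamp2 (-0.13) and the long Syn3 (0.42).

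Other cells were present in the cut samples, and some of their markers moved with the groups, those of macrophages alone past the threshold. Of 11 macrophage markers tested, 9 rose and 0 fell; their summed level was 209 to 233 FPKM in the crush libraries and 103 to 131 FPKM in the sham libraries. Of 14 markers of large myelinated sensory neurons, the cells of touch and limb position, 6 fell and 0 rose, with a median log2 change of -0.47 and summed levels of 1360.4 to 1648 FPKM after crush and 2224 to 2343 FPKM after sham. Of the 8 Schwann cell, 9 satellite glia and 8 fibroblast and vessel markers tested 0 passed in limma, with 4, 2 and 4 at an unadjusted p under 0.05, as were 17.6% of all genes (median log2 changes 0.22, 0.08 and 0.33). The most abundant of these was Apoe, at 1475 to 1657.9 FPKM after crush and 1387 to 2303 FPKM after sham, and no listed marker that was found was at 0 in any library. Of 9 pan-neuronal markers 0 passed, with 4 at an unadjusted p under 0.05 and a median log2 change of -0.02. The log2 change was below 0 in 6 of the 9, against 54.1% of all genes. Rbfox3, Eno2 and Isl1 lay lower in every crush library and Stmn2 higher, against 14.1% and 12.2% of all genes. The most abundant, Tubb3, a neuronal tubulin, stood at 2048 to 2447 FPKM after crush and 1677 to 2113 FPKM after sham. The part of these shifts in the results below was not tested. In samples of many cells, fewer cells of a type and less RNA per cell cannot be told apart.

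By level, the 36 genes spanned from Sncg, gamma-synuclein, at 1552 ± 146 FPKM after crush and 1875 ± 713 FPKM after sham (SD, n = 3; all means below are over the 3 libraries of a group), down to the glutamate transporter Slc17a8 at 1.24 ± 0.264 and 1.24 ± 0.187 FPKM. In all, 13 genes averaged at least 100 FPKM, 19 lay between 10 and 100, and 4 lay under 10 (Pclo, Rab3b, Syn3 and Slc17a8). After Sncg the most abundant were Cplx1, Snap25, Syt11 and Syp. In 26 of the 36 genes, 72.2%, the log2 change was below 0, against 54.1% of all genes tested, and the median was -0.14 against -0.02. The 3 crush values lay all below the 3 sham values in 13 genes, 36.1%, against 14.1% of all genes, and all above them in 1 gene, Syt4, against 12.2%. Beside the 4 genes that passed, 10 of these separated genes missed the threshold. The list was chosen with earlier results of these data known, so these shares are not those of a list drawn blind.

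**Figure D2:**
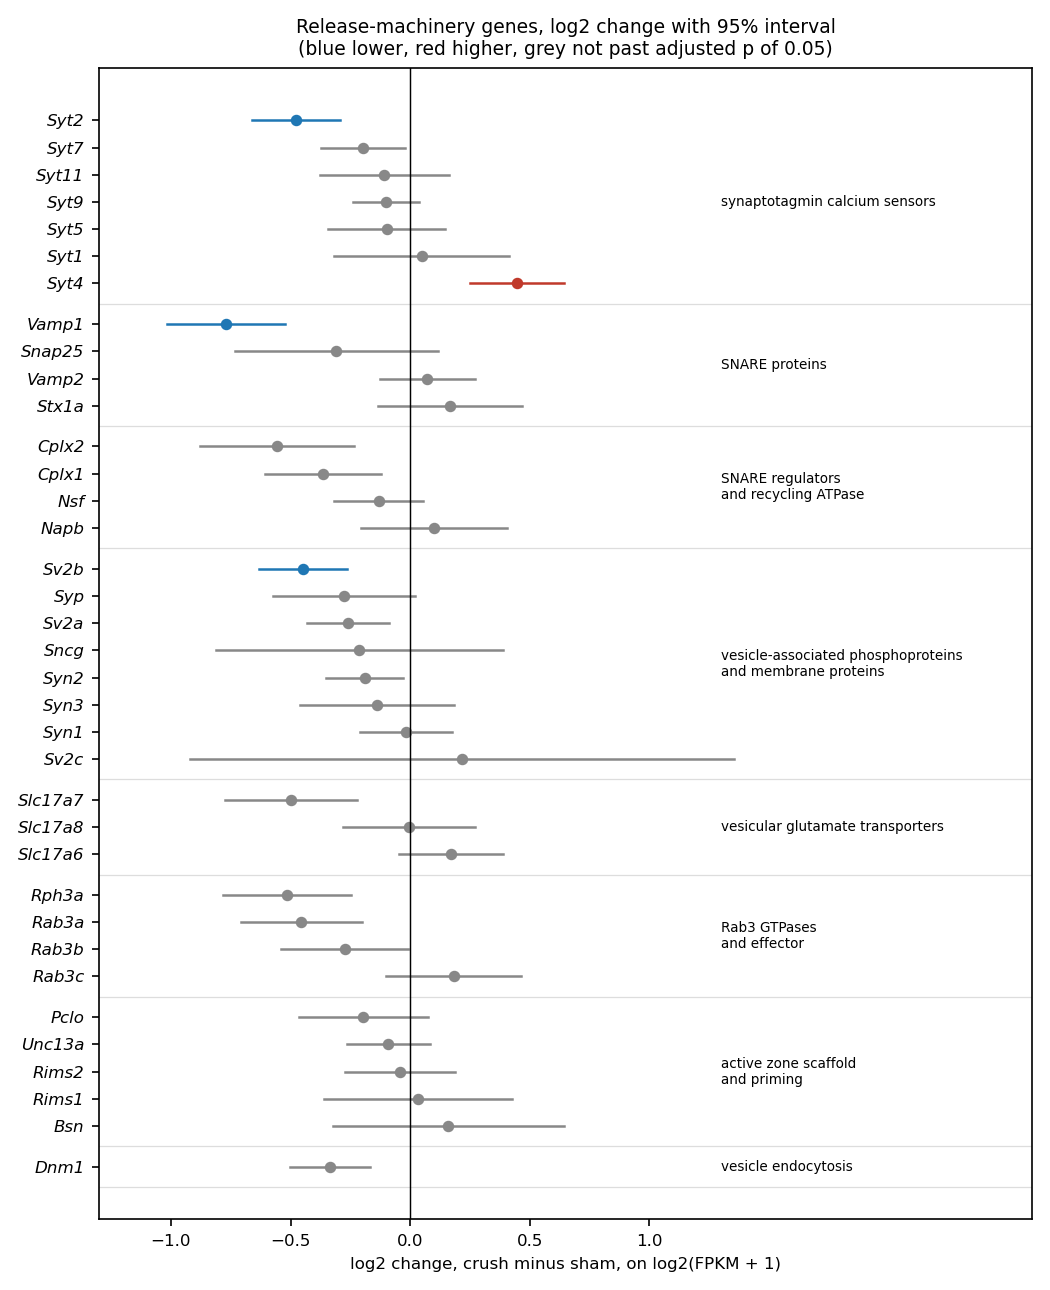
Log2 change of each of the 36 genes (crush minus sham on the log2(FPKM + 1) scale, horizontal axis) with its 95% interval from limma, grouped by role; blue genes fell, red rose and grey did not pass. Vamp1 lies farthest left at -0.77 and Syt4 farthest right at 0.45.

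Among the SNARE proteins Vamp1 fell, while the other synaptobrevin, Vamp2, did not pass. Vamp1, a vesicle SNARE of spinal cord and neuromuscular synapses, had 129.7, 114 and 121 FPKM in crush 1 to 3, against 216, 183 and 227 FPKM in sham 1 to 3. Every crush value lay under every sham value, with means of 122 ± 7.80 and 209 ± 23.0 FPKM, a ratio of 0.583. The log2 change was -0.77 with a standard error of 0.103 (adjusted p = 0.0148). Vamp2, the vesicle SNARE of most brain synapses, had 168, 176 and 160.4 FPKM after crush, against 174, 151 and 156 FPKM after sham. Its groups overlapped, and the 95% interval of its log2 change ran from -0.13 to 0.27 (adjusted p = 0.736). Vamp1 thus held 39.4% to 43.6% of the summed FPKM of the pair in the crush libraries and 54.8% to 59.3% in the sham libraries. The FPKM-weighted transcript length was 2910 bases for Vamp1 and 490 for Vamp2. The part of this difference in the share was not tested. Snap25, the membrane SNARE, had 342, 320.1 and 333 FPKM after crush and 550.3, 341 and 368 FPKM after sham. Sham 1 stood alone at the top and the other sham libraries lay at or just above the crush values, so that the change of -0.31 did not pass (adjusted p = 0.444). Stx1a, syntaxin 1A, averaged 26.7 ± 0.746 FPKM after crush and 24.0 ± 4.51 FPKM after sham and overlapped (log2 change 0.17, adjusted p = 0.572). Without sham 2, Stx1a rose by 0.30 (adjusted p = 0.0377).

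In mm9, the authors' build, Vamp1 lies on chromosome 6 from 125165268 to 125191234. Of its exon bases, 47.7% lie in exons of Tapbpl on the opposite strand, and no source says whether the libraries kept strand. Tapbpl was listed at 7.52 ± 0.717 FPKM after crush and 8.30 ± 1.09 FPKM after sham and did not pass (adjusted p = 0.630). The value of Vamp1 is uncertain to the extent that such reads were shared. Nearly all of its FPKM, 99.9%, came from 1 isoform with a reference identifier, of 2911 bases. The deposited intervals for that isoform ran from 100.7 to 158 in crush 1, 88.8 to 139 in crush 2 and 94.0 to 147 in crush 3. In the sham libraries they ran from 167 to 265 in sham 1, 142 to 224 in sham 2 and 176 to 278 in sham 3. The interval of sham 2 met those of crush 1 and crush 3 at its lower end, and those of sham 1 and sham 3 met none of the crush group. The authors' deposited table gave this isoform a log2 change of -0.83. The call of Vamp1 was lost without sham 1 (adjusted p = 0.0639), sham 3 (0.0703), crush 1 (0.0722), crush 2 (0.0749) or crush 3 (0.0707) and kept without sham 2 (0.00226). Its log2 change stayed between -0.86 and -0.71 throughout.

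Of the 7 synaptotagmins, 1 fell, 1 rose and 5 did not pass. Syt2, the fast calcium sensor of brainstem, spinal and neuromuscular synapses, had 41.3, 35.2 and 38.3 FPKM in crush 1 to 3, against 53.7, 51.6 and 55.2 FPKM in sham 1 to 3. The groups did not overlap, and the means of 38.3 ± 3.04 and 53.5 ± 1.81 FPKM gave a log2 change of -0.48 with a standard error of 0.0772 (adjusted p = 0.0258). Syt4, found on dense-core as well as other vesicles and able to act without calcium, had 134, 124 and 130.1 FPKM after crush, against 102, 86.9 and 95.6 FPKM after sham. Here every crush value was the higher, with means of 129 ± 5.38 and 94.8 ± 7.53 FPKM and a log2 change of 0.45 with a standard error of 0.0823 (adjusted p = 0.0369). Syt1, the classical sensor of forebrain synapses, had 32.2, 33.8 and 27.1 FPKM after crush and 35.3, 23.8 and 31.6 FPKM after sham. Its groups overlapped, with a log2 change of 0.05 and a 95% interval from -0.32 to 0.42. The most abundant of the family was Syt11, a synaptotagmin without calcium binding, at 322, 329.9 and 350.1 FPKM after crush and 329.7, 419.6 and 337 FPKM after sham, also overlapping (adjusted p = 0.697). Syt7, a slow high-affinity sensor, had 38.5, 41.5 and 35.8 FPKM after crush, each under the sham values of 46.0, 43.6 and 43.4 FPKM. It did not pass (log2 change -0.20, adjusted p = 0.232). Syt9, a fast calcium sensor, was likewise separated by a small margin, at 36.6 ± 1.13 and 39.3 ± 0.211 FPKM (adjusted p = 0.445), and Syt5 overlapped at 48.2 ± 1.31 and 52.0 ± 7.36 FPKM.

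**Figure D3:**
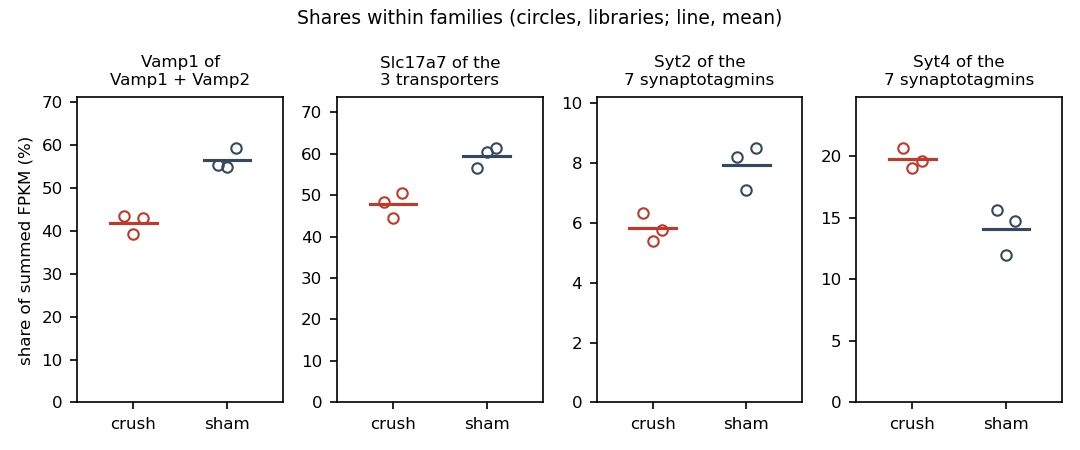
Share of the summed FPKM of a family held by Vamp1, Slc17a7, Syt2 and Syt4 in each library (percent, vertical axis; circles are libraries and lines group means, crush left and sham right). Vamp1, Slc17a7 and Syt2 held smaller shares in all 3 crush libraries, and Syt4 a larger one.

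As a share of the 7 synaptotagmins, Syt4 made up 19.0% to 20.6% of the summed FPKM after crush and 12.0% to 15.6% after sham. Syt2 made up 5.40% to 6.34% after crush and 7.12% to 8.50% after sham. These shares follow from the levels above and were not tested apart from them. In mm9 Syt2 lies on chromosome 1 from 136543143 to 136649732 and Syt4 on chromosome 18 from 31597362 to 31607674. Exons of Ppp1r12b on the opposite strand cover 79.2% of the exon bases of Syt2, so its value is uncertain. Ppp1r12b was listed at 7.16 ± 0.355 FPKM after crush and 6.92 ± 1.097 FPKM after sham and did not pass (adjusted p = 0.866). Every isoform of Syt2 overlaps an opposite-strand exon, and so does the 1 isoform that holds 99.9% of Vamp1. With such isoforms left out Syt2 has no value, and what is left of Vamp1 lies under the minimum of 1 FPKM. Without sham 1, sham 3, crush 1, crush 2 or crush 3 the call of Syt2 was lost (adjusted p = 0.0890, 0.119, 0.0785, 0.0971 and 0.108), and so was that of Syt4 (0.0732, 0.136, 0.177, 0.117 and 0.148). Without sham 2 both kept it (0.0100 and 0.0133). From isoforms with a reference identifier alone, Syt2 did not pass (log2 change -0.32, adjusted p = 0.514) and Syt4 stood at -0.03 (adjusted p = 0.986). With quantile normalisation Syt4 did not pass either (0.49, adjusted p = 0.0615).

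The isoforms of these genes were divided differently in sham 2. The Syt4 isoform of 4078 bases had 64.7, 49.7 and 33.6 FPKM in crush 1 to 3 and 43.8, 0 and 38.6 FPKM in sham 1 to 3. Its isoform of 3666 bases had 50.6, 54.3 and 63.8 FPKM after crush and 41.8, 55.0 and 39.7 FPKM after sham. The first was thus listed at 0 in sham 2, where the second was the highest of the sham libraries. For Syt2 the isoform of 7029 bases had 9.12, 9.40 and 3.19 FPKM after crush and 20.5, 0 and 17.7 FPKM after sham. The Syt2 isoform of 3969 bases, again, was the highest of the sham libraries in sham 2, at 23.2 FPKM against 10.5 and 14.2. Crush 3 was the lowest crush library for both longer isoforms. In limma 0 of 117 isoforms of the 36 genes passed, with 22 at an unadjusted p under 0.05, 20 of them lower. Among all 24485 isoforms tested, 0.00817% passed lower and 0.0531% higher. The share of all isoforms at an unadjusted p under 0.05 was not computed, so the 22 have no background beside them. The test of isoform ratios (diffSplice in limma) called 0 of 30 genes, against 0.445% of all genes with 2 or more isoforms tested. Of the 30, 3 had an unadjusted p under 0.05, again without a share over all genes. The authors' deposited table, from their own test of pooled groups, had q under 0.05 in 20 of 49 isoforms of the 36 genes with test status OK, 12 lower and 8 higher. Of the 203 isoforms of the 36 genes, 144 had test status FAIL there. No isoform of Syt2, Sv2b or Syt4 was among the 49, and some of the 20 had no finite fold change. The share over all isoforms of that test was not computed, so this count has no background beside it. Of the lower ones in the authors' deposited table, Slc17a7 stood at -0.52 (q = 1.32e-07) and Snap25 at -0.53 (q = 5.62e-07). Of the higher ones there, the Stx1a isoforms of 2142 and 1558 bases stood at 0.33 (q = 0.0167) and 0.63 (q = 0.0238). The Sncg isoform of 486 bases stood there at 0.31 (q = 0.00722). In limma this same isoform stood at -0.17 (adjusted p = 0.924), at 529 ± 57.6 FPKM after crush and 635 ± 294 FPKM after sham. The summed Sncg value stood at -0.21 in limma.

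**Figure D4:**
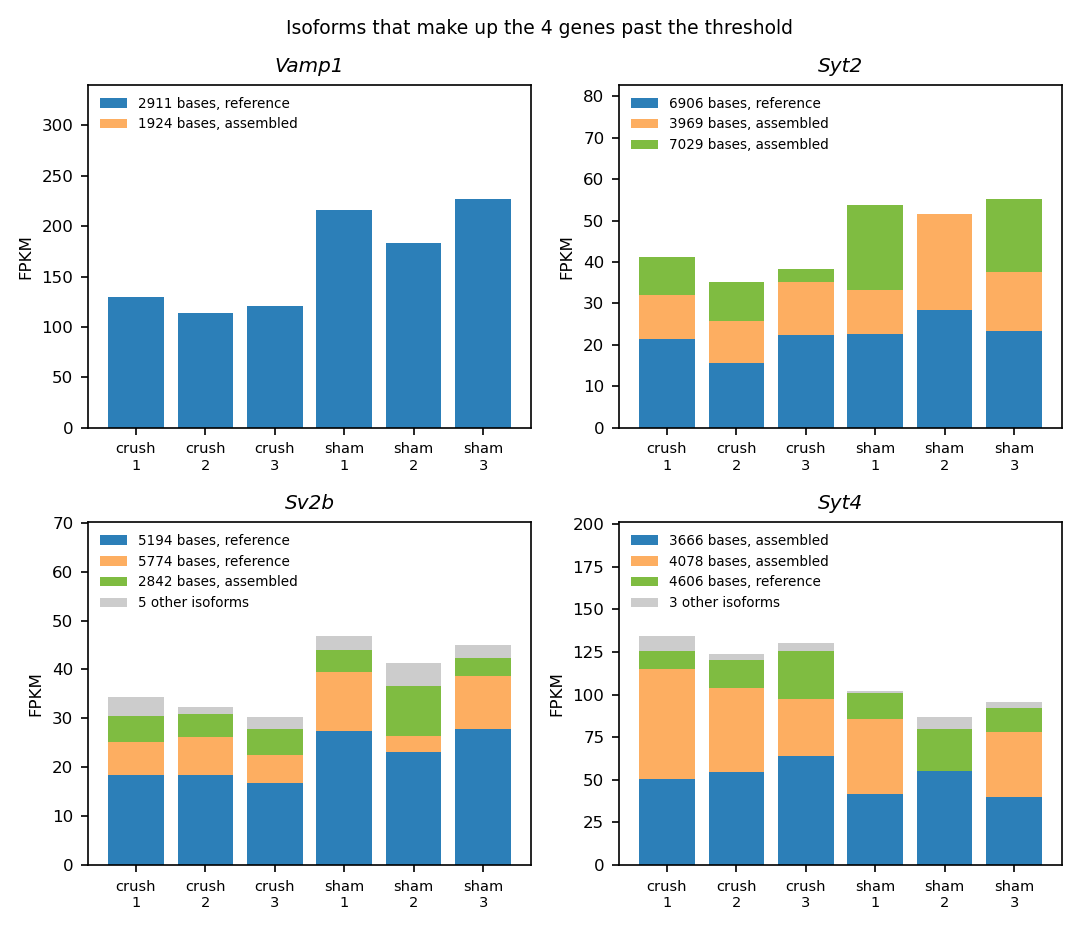
FPKM of the isoforms that make up Vamp1, Syt2, Sv2b and Syt4 in each library (stacked bars; crush 1 to 3 left, sham 1 to 3 right; the 3 most abundant isoforms named by length in bases). The 7029-base Syt2 isoform and the 4078-base Syt4 isoform are listed at 0 in sham 2, while the gene totals there stay close to the other sham libraries.

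In the vesicle membrane group, 1 of 8 genes fell and 7 did not pass. Sv2b, one of 3 related transporter-like vesicle glycoproteins, had 34.3, 32.4 and 30.3 FPKM in crush 1 to 3, against 46.8, 41.4 and 45.1 FPKM in sham 1 to 3. The groups were apart, with means of 32.3 ± 1.99 and 44.4 ± 2.80 FPKM and a log2 change of -0.45 with a standard error of 0.0778 (adjusted p = 0.0326). Sv2b lies on chromosome 7 from 82259812 to 82454482 in mm9, and its exons meet none of another gene on the opposite strand. The call was lost with upper-quartile scaling (adjusted p = 0.0595), quantile normalisation (0.0751) and reference isoforms alone (0.339), and without sham 1 (0.105), sham 3 (0.132), crush 1 (0.104), crush 2 (0.131) or crush 3 (0.132). Without sham 2 it was kept (0.00685). Sv2a, the member known as the target of levetiracetam, had 16.8, 15.7 and 17.97 FPKM after crush, under the sham values of 21.2, 19.9 and 19.9 FPKM. It did not pass (log2 change -0.26, adjusted p = 0.112). Sv2c had 18.8, 21.8 and 11.5 FPKM after crush and 24.2, 6.12 and 19.1 FPKM after sham. Its lowest values were those of crush 3 and sham 2, and the interval of its change ran from -0.92 to 1.35.

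The synapsins, phosphoproteins that tether vesicles to actin, showed no gene past the threshold. Syn1 had 174, 183 and 177 FPKM after crush and 192, 165 and 184 FPKM after sham, and the interval of its log2 change ran from -0.21 to 0.17. Syn2 lay lower in every crush library, at 58.5 ± 2.83 and 66.8 ± 2.42 FPKM, but did not pass (adjusted p = 0.216). Syn3, which shares 35.5% of its exon bases with Fbxo7 on the opposite strand, stood at 1.36 to 1.74 FPKM after crush and 1.51 to 2.37 FPKM after sham. Syp, synaptophysin, a membrane protein that binds synaptobrevin, had 195, 198 and 235 FPKM after crush and 231, 295 and 236 FPKM after sham. Crush 3 lay above sham 1, and the change of -0.28 did not pass (adjusted p = 0.321). Sncg, a synuclein abundant in sensory neurons, had 1489, 1449 and 1719 FPKM after crush and 1512, 2697 and 1415 FPKM after sham. Without sham 2, its log2 change turned from -0.21 to 0.08, neither passing.

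Of the vesicular glutamate transporters, which fill vesicles with the transmitter, Slc17a7 (VGLUT1) had the largest change, though none passed. It had 75.1, 62.7 and 82.5 FPKM in crush 1 to 3, against 103, 96.0 and 112 FPKM in sham 1 to 3. The groups did not overlap, and the log2 change was -0.50 with a standard error of 0.116 (adjusted p = 0.0724). Slc17a6 (VGLUT2), the transporter of most smaller sensory neurons, had 79.0, 76.4 and 79.7 FPKM after crush and 77.7, 62.2 and 69.2 FPKM after sham. It overlapped, with a log2 change of 0.17 and an interval from -0.05 to 0.39. No Slc17a6 isoform had quantification status OK in every library, so its value is uncertain. Slc17a8 (VGLUT3), the rarest of the 3, had 0.977, 1.51 and 1.23 FPKM after crush and 1.32, 1.03 and 1.38 FPKM after sham, with the groups interleaved. Slc17a7 made up 44.6% to 50.5% of the FPKM of the 3 transporters after crush and 56.6% to 61.3% after sham. Without sham 2, Slc17a7 fell by 0.55 on the log2 scale (adjusted p = 0.0285). VGLUT1 is known from the large myelinated afferents, whose markers also stood lower in the crush libraries, as given above; that part was not tested.

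Complexins, the clamp and trigger of the SNARE complex, were lower in all crush libraries without passing. Cplx1 had 368, 350.3 and 409 FPKM after crush, each under the sham values of 448, 527 and 477 FPKM (log2 change -0.36, adjusted p = 0.118). Cplx2 had 17.99, 19.1 and 13.3 FPKM after crush and 27.0, 24.0 and 23.8 FPKM after sham (log2 change -0.55, adjusted p = 0.0831). Cplx1 was the main one, with at least 94.3% of the summed FPKM of the pair in each library. The authors' deposited table gave log2 changes of -0.46 (q = 3.38e-05) for the Cplx1 isoform of 4405 bases and -0.33 (q = 0.00477) for that of 2017 bases. Nsf, the ATPase that disassembles SNAREs, averaged 149 ± 7.25 FPKM after crush and 164 ± 9.21 FPKM after sham and overlapped (adjusted p = 0.451). No Nsf isoform had quantification status OK in every library. Napb, its adaptor beta-SNAP, averaged 92.0 ± 4.07 and 86.7 ± 15.6 FPKM (adjusted p = 0.764) and shares 73.2% of its exon bases with Gzf1 on the opposite strand.

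Rab3 GTPases ride on vesicles and, through effectors, dock them at the membrane. Rab3a, the most abundant, had 164, 165 and 177 FPKM in crush 1 to 3, against 212, 268 and 219 FPKM in sham 1 to 3. Rph3a, rabphilin, an effector of Rab3, had 83.7, 87.8 and 75.6 FPKM after crush, against 130.2, 102 and 124 FPKM after sham. In both genes the groups were apart and neither passed, with log2 changes of -0.45 (adjusted p = 0.0730) and -0.51 (adjusted p = 0.0604). Without sham 2 both fell, by 0.35 (adjusted p = 0.0168) for Rab3a and by 0.62 (adjusted p = 0.00566) for Rph3a. With quantile normalisation Rab3a passed and Rph3a did not. Rab3c stood at 37.9 ± 1.37 and 33.6 ± 5.39 FPKM and overlapped. Rab3b, at 2.74 ± 0.288 and 3.54 ± 0.531 FPKM, has 95.4% of its exon bases in exons of Txndc12 on the same strand, so its own level is uncertain. Rab3a in turn shares 66.0% of its exon bases with Mpv17l2 on the opposite strand, which was listed at 7.05 ± 0.850 and 7.53 ± 2.13 FPKM. The summed FPKM of the 3 Rab3 genes and rabphilin was 289 to 294 after crush and 380.4 to 401 after sham.

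The active zone scaffolds, large proteins that organise the release site, were low and showed 0 of 5 genes past the threshold in limma, with 0 at an unadjusted p under 0.05. Rims1 had 14.6, 15.3 and 15.0 FPKM after crush, inside the wide sham range of 19.1, 11.4 and 14.2 FPKM (log2 change 0.03). Rims2 (12.8 ± 0.931 and 13.2 ± 1.40 FPKM), the priming factor Unc13a (11.0 ± 0.618 and 11.8 ± 0.633 FPKM) and piccolo, Pclo (8.93 ± 1.14 and 10.4 ± 1.12 FPKM), also overlapped. No Pclo isoform had quantification status OK in every library. Of the Pclo FPKM, 64.9% came from an assembled isoform of 5303 bases, while the reference isoform of 16545 bases averaged 0.446 FPKM. Bassoon, Bsn, had 12.5, 11.5 and 9.80 FPKM after crush and 12.5, 6.91 and 11.3 FPKM after sham, and its change of 0.16 became -0.07 without sham 2. Of the Bsn FPKM, 92.1% came from an assembled isoform of 7665 bases, while the reference isoform of 15841 bases averaged 0.847 FPKM. Unc13a shares 50.2% of its exon bases with Glt25d1 on the opposite strand, listed at a like level of 10.0 ± 0.477 and 10.2 ± 0.475 FPKM. Dynamin 1, Dnm1, the GTPase that pinches off vesicles in endocytosis, came closest to the threshold without passing. It had 183, 184 and 191 FPKM in crush 1 to 3, against 235, 243 and 226 FPKM in sham 1 to 3, well apart for its spread (log2 change -0.33, standard error 0.0699, adjusted p = 0.0535). Without sham 2, Dnm1 fell by 0.31 (adjusted p = 0.0204). It shares 55.0% of its exon bases with Golga2 on the opposite strand, at 12.0 ± 0.455 and 11.6 ± 1.35 FPKM.

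**Figure D5:**
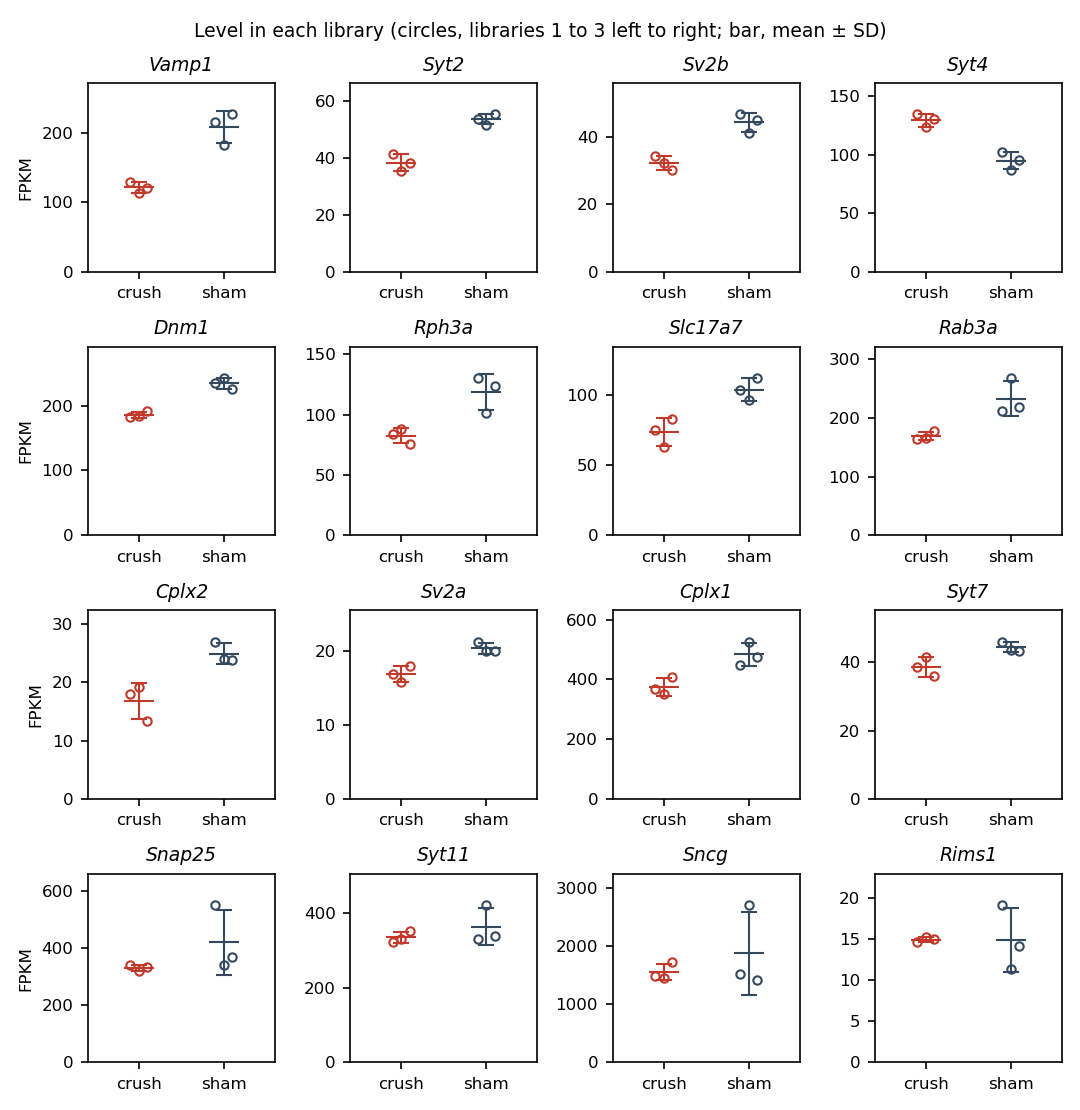
FPKM in each library (vertical axis from 0; circles are libraries 1 to 3, bars mean ± SD, n = 3) for 16 release genes, crush left and sham right. Vamp1, Syt2 and Sv2b fell and Syt4 rose; the next 8 genes do not overlap between groups without passing, and the last 4 overlap.

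The count of calls depended on the libraries. Without sham 2, 7 of the 36 genes fell and 2 rose, against 4.61% and 4.94% of all genes. The 7 were Vamp1, Syt2, Sv2b, Dnm1, Rab3a, Rph3a and Slc17a7, and the 2 were Syt4 and Stx1a. Without both sham 2 and crush 3, 11 fell and the same 2 rose (6.88% and 6.23% of all genes); Cplx1, Cplx2, Sv2a and Syp were added. With limma's library weights, 10 fell and 1 rose (5.66% and 5.97% of all genes), the same as these without Syp and Stx1a. Without sham 1, sham 3, crush 1, crush 2 or crush 3, 0 of the 36 genes passed in limma, with 10 to 12 lower and 1 to 3 higher at an unadjusted p under 0.05. The counts of all genes passing also moved with the library left out, as given in the closing section. The 0 is therefore not read as particular to the release genes. In the main test 17.6% of all genes had an unadjusted p under 0.05, and that share was not computed for these settings.

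Of further genes of the pathway, 107 of 125 listed were tested; 3 were lower at the threshold (2.80%, against 1.39% of all genes), 1 was higher (0.935%, against 2.38%) and 103 missed it, with a median log2 change of -0.01, near that of all genes. Syt3, a further synaptotagmin, had 9.41, 8.22 and 9.42 FPKM in crush 1 to 3, against 15.7, 17.6 and 17.7 FPKM in sham 1 to 3. Its groups were far apart, and the log2 change of -0.85 was larger in size than that of any of the 36 genes (standard error 0.0829, adjusted p = 0.00717). It was 1 of 8 further calcium sensors tested (median 0.04). Among 27 genes of endocytosis and recycling, 2 fell and 1 rose (median -0.02). Amphiphysin, Amph, which recruits dynamin, fell to 37.3 ± 1.27 FPKM after crush, against 47.7 ± 1.28 FPKM after sham (log2 change -0.34, adjusted p = 0.0340). Pacsin1, syndapin, another dynamin partner, fell to 47.4 ± 0.267 FPKM, against 60.6 ± 3.54 FPKM (-0.35, adjusted p = 0.0419). Sh3glb1, an endophilin-related protein, rose to 36.7 ± 1.51 FPKM, against 27.6 ± 1.56 FPKM (0.40, adjusted p = 0.0329). Without sham 1, sham 3, crush 1, crush 2 or crush 3, Syt3 alone of these 4 passed (adjusted p 0.0184 to 0.0455); without sham 2 all 4 did. With upper-quartile scaling Amph and Pacsin1 did not pass (adjusted p = 0.0542 and 0.0892), nor with quantile normalisation (0.0695 and 0.120). Reference isoforms alone lost all 4 calls (adjusted p = 0.121 for Syt3, 0.230 for Amph, 0.477 for Pacsin1 and 0.328 for Sh3glb1). Pacsin1 was also lost from isoforms free of opposite-strand overlap (0.411). From isoforms of quantification status OK only, Sh3glb1 was not left to test, so its value is uncertain. Syt3, Amph and Pacsin1 passed there (adjusted p = 0.00684, 0.0362 and 0.0443).

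In the other 4 lists 0 genes passed in limma, with 13 of 72 at an unadjusted p under 0.05 (18.1%, near the 17.6% of all genes). The 3 values of one group lay all below those of the other in 14.1% of all genes (crush lower) and 12.2% (crush higher), which the counts below can be set against. Among 12 other vesicle membrane proteins and transporters, 6 lay lower in every crush library and 0 higher (median -0.17), led by synaptogyrin, Syngr1, at 94.6 ± 2.06 and 115 ± 2.85 FPKM (adjusted p = 0.0649). Among 21 further SNAREs and partners the median was -0.05, and the smallest adjusted p was that of Stxbp6, which binds syntaxin (3.12 ± 0.103 and 4.24 ± 0.429 FPKM, adjusted p = 0.0798). Among 20 further active zone and Rab genes, 4 lay lower and 5 higher in every crush library (median 0.06). Erc2, an active zone protein, stood at 27.5 ± 0.581 and 20.2 ± 3.41 FPKM (adjusted p = 0.111). Among 19 subunits of the proton pump that energises vesicle filling, 3 lay lower and 4 higher (median -0.04), and Atp6ap1, an accessory subunit, stood at 196 ± 10.4 and 166 ± 3.53 FPKM (adjusted p = 0.148).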

How the data were processed

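RNA of 3 crush and 3 sham libraries had been sequenced, and 1 isoform table and 1 exon file were deposited. Reads were aligned with TopHat 1.3.2 to mouse mm9 and transcripts assembled and quantified with Cufflinks 1.1.0 and Cuffdiff 1.2.1, per the submitters' processing notes. The deposited FPKM values with their intervals were computed by the authors, as were the log2 fold changes, p-values and q-values of pooled groups, which are quoted only where the authors' table is named. FPKM keep no read number, so the depth behind a value is unknown and no counting interval is given. How a library kept strand is not given in the sources used here.

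Of 60744 isoforms, those sharing a gene name were summed (17022 names). Of 203 isoforms of the release genes, 38 lacked quantification status OK in some library, among them all those of Slc17a6, Nsf and Pclo. From isoforms of OK status only, 31 of the 36 genes were left to test, and Sv2b, Syt2, Syt4 and Vamp1 passed. More genes than those named were thus left out there, and the others carry no mark of it above. The main test was limma 3.58.1 (R 4.3.3, lmFit and eBayes with a trend) on log2(FPKM + 1), and fold changes are on that scale, where low genes move less than their ratio. Genes with a mean of at least 1 FPKM entered (12289), p-values were adjusted by Benjamini-Hochberg over all of them, and an adjusted p under 0.05 is called passing. On simulated data the fit recovered 84.1% of genes changed by a log2 of 1, with 4.97% false among those called. The simulation drew independent normal noise for each gene, without the shift of sham 2 and crush 3 with transcript length. Its planted changes were larger than that of any release gene (largest -0.77, Vamp1). These figures therefore do not give the recovery or error for the release genes. Isoforms were tested alike, and ratios of isoforms with diffSplice. Transcript length is the FPKM-weighted mean over isoforms. Exon overlap was read from the deposited exon file, and promoter sequences come from RefSeq in GRCm38.p6, whose coordinates were not mixed with mm9. The alternatives are other pseudocount, filter and scalings, sample weights, the replicate number as a block, other sets of isoforms, and each library left out; leaving out sham 2 and crush 3 together was chosen after seeing the data. The genes and all lists were chosen with earlier results of these data known. Genes given in full are those passing, the most abundant of each role group, and the 8 largest log2 changes among the others whose groups do not overlap; values of some further members were added after they were seen. Of 6 marker lists, genes not in the table were not analysed here.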

Additional observations from a re-analysis of the deposited data

How the results depend on the processing

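The directions of Vamp1, Syt2 and Sv2b were kept in every alternative that gave a value, and that of Syt4 in all but isoforms with a reference identifier, at -0.031; their calls were not. With 3 libraries a group, the loss of 1 library changed most counts. Leaving out 1 library at a time gave 43 to 607 genes higher and 10 to 567 lower of all genes (293 and 171 in the main test), 0 to 2 release genes higher and 0 to 7 lower (1 and 3), 0 to 4 further pathway genes higher and 1 to 11 lower (1 and 3), and 4 to 17 markers higher and 0 to 12 lower (9 and 6). It gave 0 to 2 release isoforms lower and 0 to 3 release genes with a ratio difference (0 and 0). In each of these the highest count came without sham 2. Without sham 2 and crush 3 together the counts were 765 higher and 845 lower of all genes, 2 and 11 release genes, 7 and 15 pathway genes, and 21 and 15 markers. Sample weights (sham 2 weighted lowest, at 0.162; their estimation stopped short of its convergence tolerance) gave 734 higher and 695 lower of all genes and 10 release genes lower. Isoforms with a reference identifier alone gave 52 and 15 of all genes, and 0 higher and 1 lower of 28 release genes left to test. Isoforms free of opposite-strand overlap gave 1 release gene lower of 29 left, since Vamp1 and Syt2 dropped out. Quantile normalisation gave 0 release genes higher and Rab3a, Syt2 and Vamp1 lower, and upper-quartile scaling gave 1 pathway gene lower. Beyond the smaller tables, the cause was not tested.

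With the replicate number as a block, 45 genes were higher and 5 lower of all, 0 and 0 release genes, 0 and 0 pathway genes (Syt3 at an adjusted p of 0.0605), and 3 and 2 markers (limma); 11 release genes were lower and 1 higher at an unadjusted p under 0.05. The share of all genes at that unadjusted p was not computed with the block, so the 11 and 1 have no background. Deviations of same-numbered libraries correlated at 0.37, -0.31 and -0.49, and those of sham 2 and crush 3 at 0.59. The shift of sham 2 and crush 3 with transcript length enters these values. They therefore cannot decide whether the numbers pair the samples.

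Some release genes that did not pass changed sign. With sample weights this was so for Napb (-0.046), Rims1 (-0.17), Sv2c (-0.15) and Syt1 (-0.052). With reference isoforms alone it was so for Sv2c (-0.14), Syn1 (0.053), Syt7 (0.50), Syt9 (0.051) and Syt11 (0.012). Upper-quartile scaling gave 0.017 for Slc17a8 and 0.026 for Syn1, and quantile normalisation 0.032 for Syn1. Without sham 2 and crush 3 the log2 changes were -0.0067 for Napb, -0.14 for Rims1, 0.0055 for Sncg, -0.083 for Sv2c, -0.016 for Syt1 and 0.023 for Syt5. Leaving out 1 library gave ranges of -0.074 to 0.31 for Bsn, -0.0042 to 0.24 for Napb, -0.13 to 0.22 for Rims1, -0.13 to 0.011 for Rims2, -0.090 to 0.081 for Slc17a8 and -0.38 to 0.081 for Sncg. They were -0.34 to 0.57 for Sv2c, -0.078 to 0.027 for Syn1, -0.21 to 0.00025 for Syn3, -0.11 to 0.17 for Syt1, -0.17 to 0.0019 for Syt11 and -0.16 to 0.014 for Syt5. Over all alternatives, 470 member log2 changes kept direction and side of the threshold, 22 newly passed, 29 no longer passed and 35 changed sign.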
